A study of Mus musculus with 3 samples.

Results

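The genes described here are Il10, which encodes the cytokine interleukin-10, and 9 genes of transcription factors and a coactivator that act on it: Ahr, Maf, Nfil3, Rora, Crtc2, Sp1, Batf, Creb1 and Atf1. They were taken by name, in a list drawn up with earlier results of these data known. Each had 1 probe, so they make up 10 of the 16390 named genes on the array. The mice carried the IL-10 Venus reporter, by which cells that express Il10 fluoresce, and all 3 populations came from such mice, with no treatment named for any of them. The first population was B220+ cells of the spleen, called B220+ cells from here on. The other two were sorted as Venus+ CD138hi, from spleen and from bone marrow. B220 is a form of CD45 found on B cells, and CD138 is a surface protein of plasma cells. The labels name no Venus gate for the B220+ cells and no B220 gate for the Venus+ cells. They give no age and no strain background. How many mice went into a sort is not stated in the labels.

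Each population was measured on 1 single-colour array, so no difference below has a replicate check, none was tested, and array and population cannot be told apart. Signals are spot intensities above the blank spots of the array, scaled so that the median detected signal of an array is 25, and a signal is set only against the same probe on another array. The error given is a spot error, from the spread of blank and control spots within the arrays. Higher and lower are used of a gene detected on both arrays of a pair with signals at least 2-fold apart, which is 1 on the log2 scale. For a gene detected on 1 array of a pair the fold is a lower bound. Detected probes made up 67.6% to 73.4% of the 23473 on the array. In sorted populations, a smaller share of cells that express a gene and less of its RNA per cell cannot be told apart.

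The labels were set against marker genes. The summed signal of the detected plasma cell markers was 699 for B220+ cells, 12847 for spleen Venus+ cells and 21121 for those of the bone marrow, with 6, 7 and 7 of 7 markers detected. Between the Venus+ populations Ighm (2433 to 8234) gave most of the rise, while Prdm1 (81.5 to 34.4) and Irf4 (1128 to 688) fell. That of the B cell markers was 28713, 10427 and 4437, with 10, 9 and 8 of 10 detected. Ms4a1 and Cd79b made up most of it, and Fcer2a (62.4 to 166) and Ebf1 (149 to 195) rose from spleen to bone marrow Venus+ cells. Pax5 and Cr2 were not detected in the bone marrow cells, and Cr2 was not detected in the spleen Venus+ cells. Markers of other cells were present as well. Granulocyte markers summed to 5246 in B220+ cells (11 of 12 detected), 140 in the Venus+ cells of the spleen (5 of 12) and 573 in those of the bone marrow (11 of 12). T cell markers summed to 72.1, 1371 and 1705, with 12, 13 and 10 of 14 detected, and most of the sum in both Venus+ populations came from Cd247 and Cd28. Monocyte and macrophage markers summed to 86.5, 154 and 282, with 7, 4 and 6 of 10 detected, and most of the rise came from Cd68 (33.0, 111 and 241). Csf1r was near level (23.8, 24.9 and 27.3). Adgre1, C1qa and Ccr2 were detected in B220+ cells alone, and Ms4a7 in the Venus+ populations alone. NK and innate lymphoid cell markers summed to 23.8, 63.7 and 74.3, with 5, 5 and 4 of 7 detected. Of these, Kit was not detected in B220+ cells and gave 36.0 and 35.8 in the Venus+ populations.

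Interleukin-10 restrains inflammation by acting on macrophages, dendritic cells and T cells, and B cells and plasma cells are among the cells that make it. Its gene is open to several kinds of signal. CREB1 and ATF1 are close relatives that bind the cyclic AMP response element, and CRTC2 is a coactivator that enters the nucleus and binds CREB1. SP1 binds GC-rich promoter sites, MAF and BATF are leucine zipper factors, AHR is a receptor for small aromatic ligands that pairs with ARNT, NFIL3 is a leucine zipper factor that binds D-box sites, and RORA is an orphan nuclear receptor.

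As reported, the signals of Sp1, Creb1 and Atf1 were lower at each step from B220+ to spleen to bone marrow Venus+ cells. That of Nfil3 was higher in both Venus+ populations. Under some other settings, described below, the spleen ratios of Sp1, Creb1 and Nfil3 changed sign, and Creb1 was near its limit in the bone marrow. Because of the contrast in the reported signals, the promoters of these 4 regulators are shown here. Each is the 250 bases before the RefSeq start of the gene in GRCm38.p6, 5′ to 3′ on the strand of the gene, with GC boxes (GGGCGG or its reverse, CCGCCC) in capitals. The window of Sp1 is chr15:102406066-102406315 on the plus strand, that of Creb1 chr1:64532554-64532803 on the plus strand, that of Atf1 chr15:100227609-100227858 on the plus strand and that of Nfil3 chr13:52981040-52981289 on the minus strand.
Sp1: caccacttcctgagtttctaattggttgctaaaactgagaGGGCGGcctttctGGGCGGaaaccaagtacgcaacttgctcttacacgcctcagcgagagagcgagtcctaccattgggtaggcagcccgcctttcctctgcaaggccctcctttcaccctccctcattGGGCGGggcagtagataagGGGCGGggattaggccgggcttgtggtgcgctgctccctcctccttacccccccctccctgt
Creb1: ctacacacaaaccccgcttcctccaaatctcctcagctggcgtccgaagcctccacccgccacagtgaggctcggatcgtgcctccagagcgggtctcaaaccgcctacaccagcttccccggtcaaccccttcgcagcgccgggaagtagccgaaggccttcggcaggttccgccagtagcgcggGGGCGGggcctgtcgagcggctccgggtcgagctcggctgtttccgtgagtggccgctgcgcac
Atf1: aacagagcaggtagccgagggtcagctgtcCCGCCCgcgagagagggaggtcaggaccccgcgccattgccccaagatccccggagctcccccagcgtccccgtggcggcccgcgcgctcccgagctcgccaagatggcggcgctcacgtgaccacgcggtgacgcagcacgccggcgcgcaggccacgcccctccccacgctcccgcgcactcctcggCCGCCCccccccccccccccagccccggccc
Nfil3: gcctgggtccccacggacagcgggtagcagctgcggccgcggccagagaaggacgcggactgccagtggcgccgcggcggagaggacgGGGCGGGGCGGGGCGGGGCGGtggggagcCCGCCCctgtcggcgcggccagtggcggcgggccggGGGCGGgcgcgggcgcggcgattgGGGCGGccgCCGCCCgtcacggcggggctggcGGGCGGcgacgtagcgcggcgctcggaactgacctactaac

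RefSeq promoters were matched for 6 of the 10 genes, the 4 above with Batf and Rora. GC boxes, the kind of site that SP1 binds, were present in 5 of these 6 windows and in 32.7% of 32851 promoter windows of the same length. The window of Nfil3 held 9, some of which overlap, that of Sp1 4, that of Atf1 2, those of Creb1 and Batf 1 each and that of Rora 0. Nfil3 (81.6%) and Atf1 (77.6%) had the most G and C of the 6, against a median of 52.4% over all windows, and Batf (46.4%) the least. Searched on both strands, the full cyclic AMP response element TGACGTCA was in 0 of the 6 and in 1.55% of all windows. Its shorter core TGACG, which is also part of the full element, was in 3 of the 6 (Atf1, Batf and Nfil3) and in 17.8% of all. The core GCGTG of the site bound by AHR was in 3 of the 6 (Atf1 with 4 matches, Rora and Sp1) and in 28.2% of all. AGGTCA, the core of the site bound by ROR factors, was in 2 of the 6 (Atf1 and Nfil3) and in 14.02% of all. The D-box TTANGTAA and the AP-1 site TGANTCA were in none of the 6, and in 2.06% and 6.75% of all. A match is a string of letters, and binding was not measured.

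Il10 itself had a signal of 5.94 in B220+ cells, 88.8 in Venus+ cells of the spleen and 91.3 in those of the bone marrow. Both Venus+ populations were high and near each other, and the B220+ cells were low but above the detection limit of that array (1.34). The log2 ratio to B220+ cells was 3.90 ± 0.21 in the spleen and 3.94 ± 0.21 in the bone marrow. A higher Il10 follows from the sort on Venus and is a check of the labels. Between the Venus+ populations the difference was 0.04 ± 0.11, within its spot error, so the regulators below are compared between populations of like Il10 signal. That sign turned under 3 of 9 other settings, with values from -0.23 to 0.37.

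**Figure D1:**
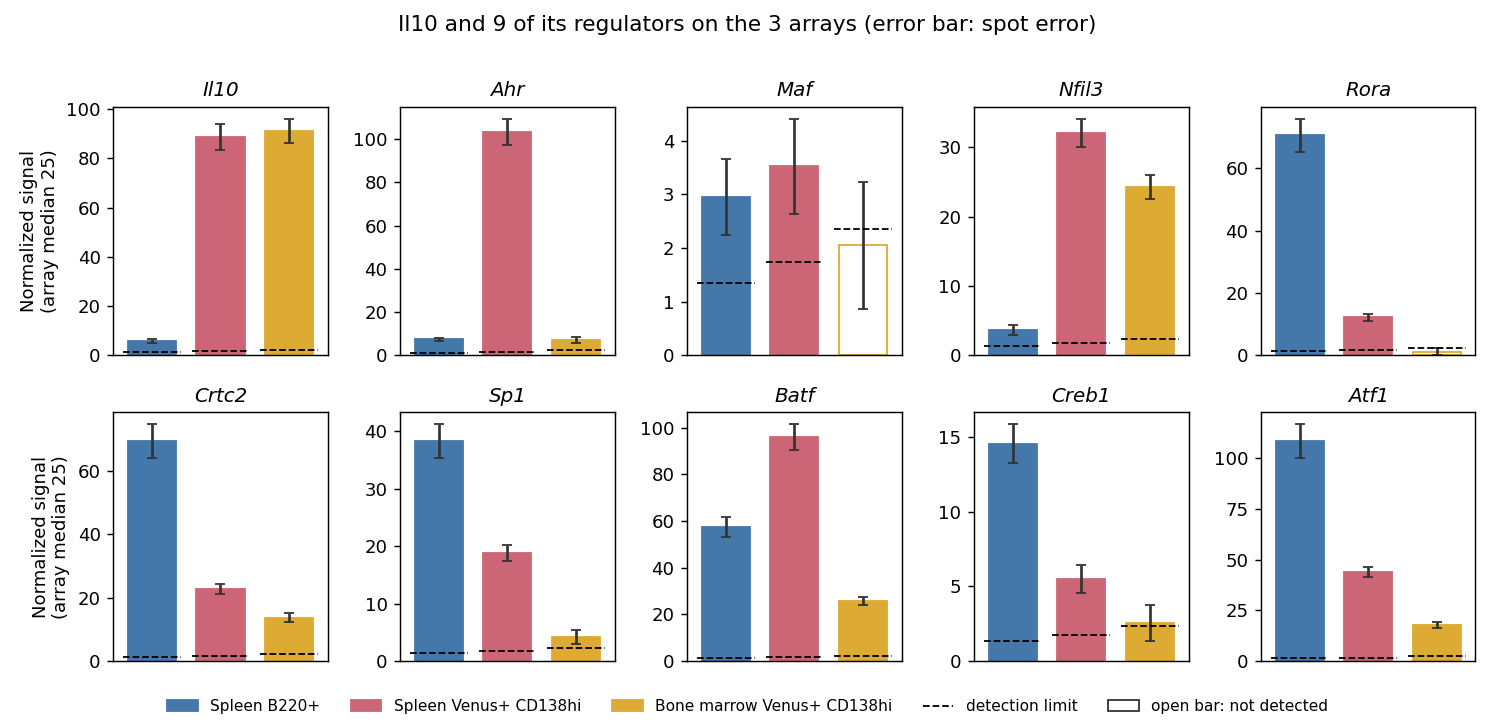
Normalized signal (vertical axis, linear, array median 25) of Il10 and 9 regulators in spleen B220+ cells (blue), spleen Venus+ CD138hi cells (red) and bone marrow Venus+ CD138hi cells (yellow). Bars are single arrays, error bars are spot errors, dashed lines are detection limits and open bars mark genes not detected, which are Maf and Rora in the bone marrow. Ahr stands at 103 in the spleen Venus+ cells and near 7 in both others.

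The regulators did not follow Il10 as a group. Il10 is itself counted among the 10 genes and in the medians below. Its rise over B220+ cells follows from the sort on Venus. In spleen Venus+ against B220+ cells, 3 of the 10 genes were at least 2-fold higher, where 15.7% of 11618 genes were. They were Il10 and the regulators Ahr and Nfil3. Another 5 were at least 2-fold lower (Rora, Crtc2, Sp1, Creb1 and Atf1), where 16.5% of all genes were, and Maf and Batf lay between. The median log2 ratio of the 10 was -0.39, against -0.02 over all genes. In bone marrow Venus+ against B220+ cells, 2 were higher (Il10 and, of the regulators, Nfil3 alone) beside 22.4% of 10813 genes. Another 5 were lower (Crtc2, Sp1, Batf, Creb1 and Atf1) beside 30.7%, and Ahr lay between. Maf and Rora were detected in the B220+ cells alone of that pair. Of all genes, 4.36% were detected so and had a bound of 2-fold or more, and Rora but not Maf was one of them. The median over the 8 genes detected on both was -1.75, against -0.24 over all genes.

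In bone marrow against spleen Venus+ cells, 0 of the members were at least 2-fold higher, where 4.33% of 11352 genes were. At least 2-fold lower were 5 of them (Ahr, Sp1, Batf, Creb1 and Atf1), where 15.2% of all genes were. Il10, Nfil3 and Crtc2 lay between, and Maf and Rora were detected in the spleen cells alone. Rora was among the 2.43% of all genes that were detected in the spleen cells alone and had a bound of 2-fold or more, and Maf was not. The median over the 8 genes detected on both was -1.20, against -0.17 over all genes. The 3 comparisons share arrays in pairs, so their counts are not independent of each other.

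As reported, the bone marrow array lay below the others over all genes, but both the size and the direction of this difference depend on the scaling. When scaling used only probes detected on every array, the median of all genes moved from -0.24 to 0.05 against B220+ cells and from -0.17 to 0.16 against spleen Venus+ cells. All genes then split into 3056 higher and 2609 lower in place of 2424 and 3320 for the first pair. For the second pair they split into 1250 and 916 in place of 492 and 1720. Members called lower went from 5 to 4 for the first pair, with Batf at -0.86. For the second they went from 5 to 3, with Creb1 at -0.77 and Atf1 at -0.97, while Ahr (-3.53), Sp1 (-1.83) and Batf (-1.56) stayed beyond 2-fold. A detection limit from spots without a probe also changes the scaling. All genes of the spleen pair then split into 2450 higher and 1029 lower in place of 1828 and 1915. The members then split into 4 higher and 3 lower.

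**Figure D2:**
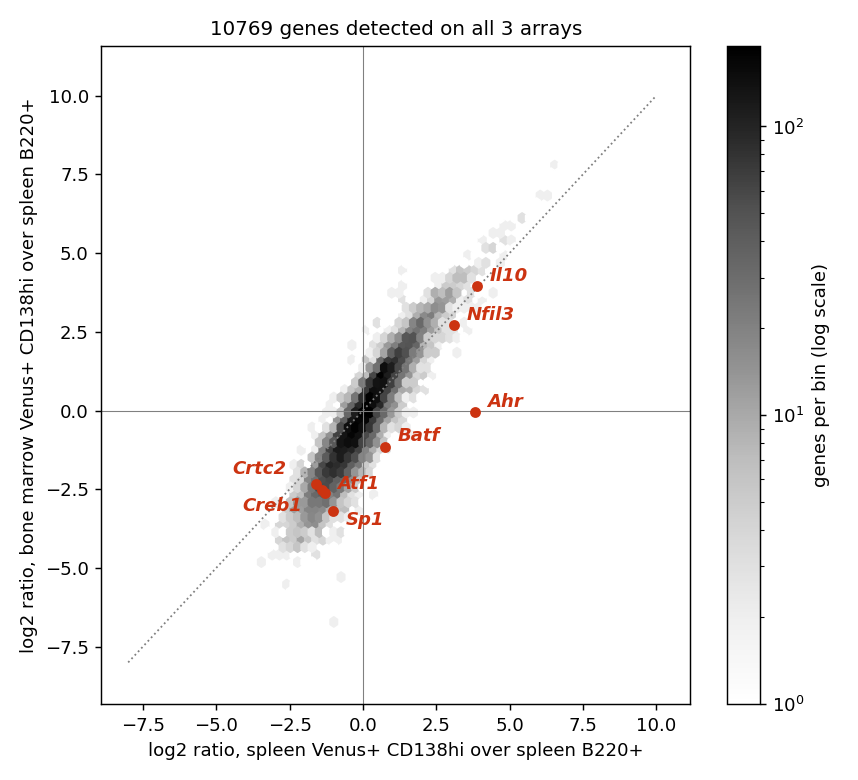
Log2 ratio of bone marrow Venus+ CD138hi to spleen B220+ cells (vertical axis) against that of spleen Venus+ CD138hi to spleen B220+ cells (horizontal axis) for the 10769 genes detected on all 3 arrays, with grey hexagons shaded by the number of genes on a log scale. Red points are the 8 members among them, and the dotted line marks equal ratios. Both axes share the B220+ array. Ahr lies far below the dotted line, at 3.80 and -0.05, while Il10 and Nfil3 lie near it.

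Nfil3 and Ahr were the regulators whose signal was higher in spleen Venus+ than in B220+ cells. NFIL3 is known for its part in lymphocyte development, in cytokine genes and in clock-controlled transcription. Its signal was 3.70 in B220+ cells, 32.1 in Venus+ cells of the spleen and 24.2 in those of the bone marrow. Both Venus+ populations were high. The log2 ratio to B220+ cells was 3.12 ± 0.30 in the spleen, above 98.2% of genes, and 2.71 ± 0.30 in the bone marrow, 2.96 above the median of all genes there. Bone marrow and spleen Venus+ cells differed by -0.40 ± 0.14, under 2-fold. Nfil3 was dim in B220+ cells, at 2.76 times the detection limit. The normexp background added an offset of 50 to each spot, which compresses ratios, most of all those of dim spots. Under that setting the 2 ratios to B220+ cells were -0.02 and 0.14. With the same offset and the blank level as the background of normexp they were 0.88 and 0.72. With the local background subtracted and no offset they were 3.53 and 4.51. What caused these changes was not tested.

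Ahr had a signal of 7.40 in B220+ cells, 103 in Venus+ cells of the spleen and 7.13 in those of the bone marrow. The spleen Venus+ cells alone were high, and the other two lay within the spot error of each other, though all 3 values were above the detection limit. Ahr was 13.97-fold higher in spleen Venus+ than in B220+ cells (log2 ratio 3.80 ± 0.19), above 99.0% of genes. It was 14.5-fold lower in bone marrow than in spleen Venus+ cells (-3.86 ± 0.26), with 0.159% of genes below it. Bone marrow Venus+ and B220+ cells differed by -0.05 ± 0.30. At least 2-fold higher in spleen Venus+ cells than in both other populations were 99 of the 10769 genes detected on all 3 arrays, or 0.919%, and Ahr was the only member among them. Ranked by the smaller of the 2 differences, it was number 3 of the 99. Over the 9 other settings its ratio ran from 1.26 to 4.19 for spleen Venus+ against B220+ cells, and from -4.23 to -1.26 for bone marrow against spleen Venus+ cells, so that both stayed beyond 2-fold. T cell markers did not move as one with Ahr: Cd3g stood at 55.7 in spleen and 8.95 in bone marrow Venus+ cells and was not detected in B220+ cells, and Thy1 at 11.2 in the spleen Venus+ cells was not detected in the bone marrow, but Cd3e and Cd8b1 were higher in the bone marrow. Their part in the difference was not tested.

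Of 9 partners and targets of AHR with a probe, 5 were detected in both spleen populations, 0 of them at least 2-fold higher and 0 lower. Arnt, which encodes the dimerization partner of AHR, was detected on none of the arrays, and neither were Ahrr, its repressor, and the target genes Cyp1a2 and Cyp1b1. Cyp1a1, the classical target, which encodes a drug-metabolizing enzyme, had signals of 57.0, 95.9 and 146 over the 3 populations in the same order, so its highest signal lay in the bone marrow. Its log2 ratios were 0.75 ± 0.14 for spleen Venus+ against B220+ cells and 0.61 ± 0.11 for bone marrow against spleen Venus+ cells. Tiparp, another target, whose product modifies AHR, had 72.6, 78.1 and 30.3, and was lower in bone marrow than in spleen Venus+ cells (-1.36 ± 0.13), as Ahr was. It was the 1 lower gene among 4 of the list detected in both, and 0 were higher, beside 15.2% and 4.33% of all genes. The target Nqo1 was near the limit in the spleen, at 1.35 and 2.22, and was not detected in the bone marrow. Arnt2, a relative of Arnt, differed by 0.67 ± 0.16 and Hsp90ab1, of the chaperone that holds AHR, by -0.84 ± 0.11 between bone marrow and spleen Venus+ cells.

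BATF has no activation domain of its own and binds DNA with JUN proteins and IRF4. The signals of Batf were 57.5 in B220+ cells, 95.9 in Venus+ cells of the spleen and 25.8 in those of the bone marrow. The spleen ratio of 0.74 ± 0.14 was under 2-fold, and 2 of 9 other settings put it just over (1.05 with quantile normalization, 1.12 when spots without a probe set the limit). Batf was 3.71-fold lower in bone marrow than in spleen Venus+ cells (-1.89 ± 0.13, or -1.72 relative to all genes), with 2.75% of genes below it. It was 2.23-fold lower than in B220+ cells (-1.16 ± 0.15), a value of -0.91 relative to all genes and so under 2-fold.

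A list of AP-1, IRF and BATF family genes was read beside Batf, and not all of them encode partners of BATF. Of these genes, 8 were detected in both spleen populations, with 4 higher in the Venus+ cells and 1 lower, beside 15.7% and 16.5% of all genes. Fos (7.60 ± 0.18) and Jun (4.23 ± 0.14), subunits of AP-1 that also respond to cell handling, had the largest ratios. Irf4, a plasma cell factor that binds with BATF, had signals of 321, 1128 and 688. Irf8, a B cell factor of the same family, was lowest at -2.74 ± 0.14, and Batf3, a close relative of Batf, stood at 0.48 ± 0.25. Between bone marrow and spleen Venus+ cells 0 of 8 were higher and 3 lower, beside 4.33% and 15.2% of all genes. The lower ones were Fos (-1.59 ± 0.11), Irf8 (-1.34 ± 0.12) and Jun (-1.07 ± 0.11). Batf3 at 0.09 ± 0.26 and Fosl2 at -0.02 ± 0.66 had the highest ratios there. When scaling used only probes detected on every array, Jun came under 2-fold.

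Maf, which encodes c-MAF, a factor known for driving Il10 in T cells and macrophages, was close to the detection limit everywhere. Its signals were 2.95 in B220+ cells and 3.52 in spleen Venus+ cells, against limits of 1.34 and 1.74, and the bone marrow value of 2.05 lay under the limit of 2.35. The spleen pair differed by 0.25 ± 0.50, within its spot error, and the sign turned under 2 of 9 other settings. The bone marrow level was at least 1.26-fold lower than that of B220+ cells and at least 1.496-fold lower than that of spleen Venus+ cells, bounds too low to give an order. Of 8 related MAF, BACH and NFE2 genes detected in both spleen populations, 1 was higher and 1 lower, beside 15.7% and 16.5% of all genes. The higher one was the small MAF gene Mafg (1.12 ± 0.15). The lower one was Bach2, which encodes a repressor that keeps B cells from becoming plasma cells (-3.76 ± 0.15), with signals of 323, 23.8 and 4.37 over the 3 populations. Mafa had 0.53 ± 0.16 and Mafk -0.48 ± 0.17. In bone marrow against spleen Venus+ cells 4 of 8 were lower and 0 higher, beside 15.2% and 4.33% of all genes. Bach2 at -2.45 ± 0.41 and Mafk at -1.77 ± 0.40 were lowest, and Maff (0.20 ± 0.54) and Nfe2l1 (-0.22 ± 0.12) highest. Under the other scaling 2 of the 4 lower genes stayed lower, Bach2 and Mafk.

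Atf1, Creb1 and Crtc2 are described together. Atf1 had 108 in B220+ cells, 43.9 in Venus+ cells of the spleen and 17.8 in those of the bone marrow. Its log2 ratios were -1.31 ± 0.14 for spleen Venus+ against B220+ cells, -2.61 ± 0.16 for bone marrow Venus+ against B220+ cells and -1.30 ± 0.15 between the Venus+ populations. Creb1 had 14.6, 5.49 and 2.55, with the last value 1.08 times its detection limit. Its ratios in the same order were -1.41 ± 0.27, -2.51 ± 0.68 and -1.11 ± 0.71, so the last lay within 2 spot errors of 0. With the limit at 3 SD, or taken from spots without a probe, Creb1 was not detected in the bone marrow, and with the local background subtracted the spleen ratio was 0.35. Crtc2, the coactivator, had 69.4, 22.7 and 13.7. It was 3.06-fold lower in spleen Venus+ than in B220+ cells (-1.61 ± 0.15) and 5.08-fold lower in bone marrow Venus+ cells (-2.34 ± 0.18). Between the Venus+ populations it differed by -0.73 ± 0.18, under 2-fold.

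These 3 genes and Sp1 were lower at each step from B220+ to spleen Venus+ to bone marrow Venus+ cells. They were 4 of the 8 members detected on all 3 arrays, and 40.8% of 10769 genes showed that order, so the share is near the background. At least 2-fold lower at each step were 3 of the 8 (Sp1, Creb1 and Atf1), against 6.13% of genes. With scaling to probes detected on every array, the second step was -0.77 for Creb1 and -0.97 for Atf1. Of the 3, Sp1 alone then stayed at least 2-fold lower at each step. Both steps use the spleen Venus+ array. With the normexp background 0 of these genes was at least 2-fold apart in any of the 3 comparisons, as the plot of ratios by processing setting shows.

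Among 14 other CREB and ATF genes with a probe, 11 were detected on both spleen arrays, 5 of them higher, 1 lower and 5 between in the Venus+ cells, beside 15.7% higher and 16.5% lower of all genes. Their median was 0.67, against -0.02 over all genes. Atf5, a stress-responsive factor, had the largest ratio (4.67 ± 0.32), with signals of 3.37, 85.6 and 107. Creb3l2, a membrane-bound factor cleaved on its way out of the endoplasmic reticulum, followed at 3.38 ± 0.46, with 2.22, 23.2 and 45.6. Atf7 was lowest (-2.24 ± 0.34), and Crem, a close relative of Creb1, had -0.64 ± 0.23. Crem was not detected in the bone marrow, at least 3.12-fold lower than in spleen Venus+ cells. Between the Venus+ populations 0 of 9 were higher and 0 lower, beside 4.33% and 15.2% of all genes. Creb3l2 (0.98 ± 0.13) and Creb3 (0.81 ± 0.11) were highest, and Atf2 (-0.82 ± 0.17) and Creb3l3 (-0.60 ± 0.56) lowest. When scaling used only probes detected on every array, 2 of the 9, Creb3l2 and Creb3, were higher there. With the normexp background 1 gene of the list was higher and 0 lower in the spleen comparison.

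Coactivators and kinases of CREB had 2 of 14 genes higher and 5 lower in spleen Venus+ than in B220+ cells, beside 15.7% and 16.5% of all genes, so the higher share is near the background. Their median was -0.67, against -0.02 over all genes. Ep300 and Crebbp, the acetyltransferases that phosphorylated CREB recruits, were lowest at -2.05 ± 0.15 and -1.96 ± 0.18. Ep300 had 73.9 and 17.8 in the spleen and was not detected in the bone marrow, at least 7.58-fold lower than in spleen Venus+ cells. The protein kinase A regulatory subunit gene Prkar2b (1.10 ± 0.26) and Sik1, of a kinase that holds CRTC proteins in the cytoplasm (1.09 ± 0.14), were highest. Between the Venus+ populations 0 of 13 were higher and 4 lower, beside 4.33% and 15.2% of all genes. Prkacb, of a catalytic subunit of protein kinase A (-1.81 ± 0.74), and Crebbp (-1.70 ± 0.55) were lowest, and Prkar1b (0.40 ± 0.13) and Crtc1, a sister gene of Crtc2 (0.36 ± 0.68), highest. The 4 lower genes became 2 under the other scaling, and with the normexp background the spleen counts were 0 higher and 1 lower.

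Sp1 had a signal of 38.2 in B220+ cells, 18.7 in Venus+ cells of the spleen and 4.18 in those of the bone marrow, in that order from high to low. The first step was just beyond 2-fold (-1.03 ± 0.15), with 15.8% of genes below it. The second was -2.16 ± 0.43, with 1.59% of genes below it, and the bone marrow signal was 1.78 times its limit. Its direction in the spleen turned to 0.11 with the normexp background and to 1.30 with the local background subtracted, and the ratio was under 2-fold with the limit at 3 SD (-0.99) and from spots without a probe (-0.65). Of 4 other Sp genes detected in both spleen populations, Sp4 (-2.10 ± 0.16) and Sp3 (-1.48 ± 0.14), its closest relatives, were lower. Sp6 (1.92 ± 0.35) was higher and Sp7 (0.99 ± 0.22) lay between. Over all genes 16.5% were lower and 15.7% higher. Between the Venus+ populations 1 of 4 was lower, Sp4 (-1.54 ± 0.34), and 0 higher, beside 15.2% and 4.33% of all genes. Sp3 stood at -0.64 ± 0.11, Sp7 at 0.42 ± 0.18 and Sp6 at 0.63 ± 0.18.

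Rora had the lowest ratio of the 10 genes in the spleen. Its signal was 70.5 in B220+ cells and 12.2 in spleen Venus+ cells, and the bone marrow value of 1.18 lay under the limit of 2.35. It was 5.79-fold lower in spleen Venus+ than in B220+ cells (-2.53 ± 0.17), with 1.15% of genes below it. The bone marrow level was at least 30.0-fold lower than that of B220+ cells and at least 5.18-fold lower than that of spleen Venus+ cells. The spleen ratio was -0.30 with the normexp background and lay between -2.57 and -1.20 under the other settings. Granulocyte markers were also highest in B220+ cells, at a sum of 5246 against 140 and 573, of which S100a9 gave 2552 and S100a8 1649. Within that list Ly6g (38.9, 99.6 and 334) and Mpo (2.22, not detected and 29.8) were highest in the bone marrow, where Rora was not detected, and Prtn3 was detected there alone. Their part in its level was not tested.

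NFIL3 and RORA also act in the circadian clock, where they act on clock genes through D-box and ROR sites. The list read beside them holds clock, D-box and ROR factor genes and also Tox and Id2, so it is not made of clock genes alone. Of 12 listed genes detected in both spleen populations, 3 were higher in Venus+ cells and 1 lower, beside 15.7% and 16.5% of all genes. Tox, of a nuclear factor of T cell and innate lymphoid development, was highest (2.45 ± 0.46), with signals of 2.27 and 12.4, and was not detected in the bone marrow, at least 5.29-fold lower than in spleen Venus+ cells. Rorb, a relative of Rora, had 1.68 ± 0.43, and Per3 was the third gene. Arntl, which encodes the clock activator BMAL1, was lower at -1.28 ± 0.14, and the clock repressor gene Cry1 had -0.71 ± 0.14. Hlf, of a D-box activator, was detected in both Venus+ populations and not in B220+ cells, at least 6.31-fold higher in the spleen, and between the Venus+ populations it had the highest ratio (0.80 ± 0.22), before Rorb (0.52 ± 0.24). In that comparison 0 of 12 were higher and 2 lower, beside 4.33% and 15.2% of all genes, so the lower share is near the background. The lower genes were Id2, of an inhibitor of E proteins (-3.08 ± 0.42), and the D-box activator gene Tef (-1.41 ± 0.18). Id2 had signals of 28.8, 35.3 and 4.17 over the 3 populations.

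**Figure D3:**
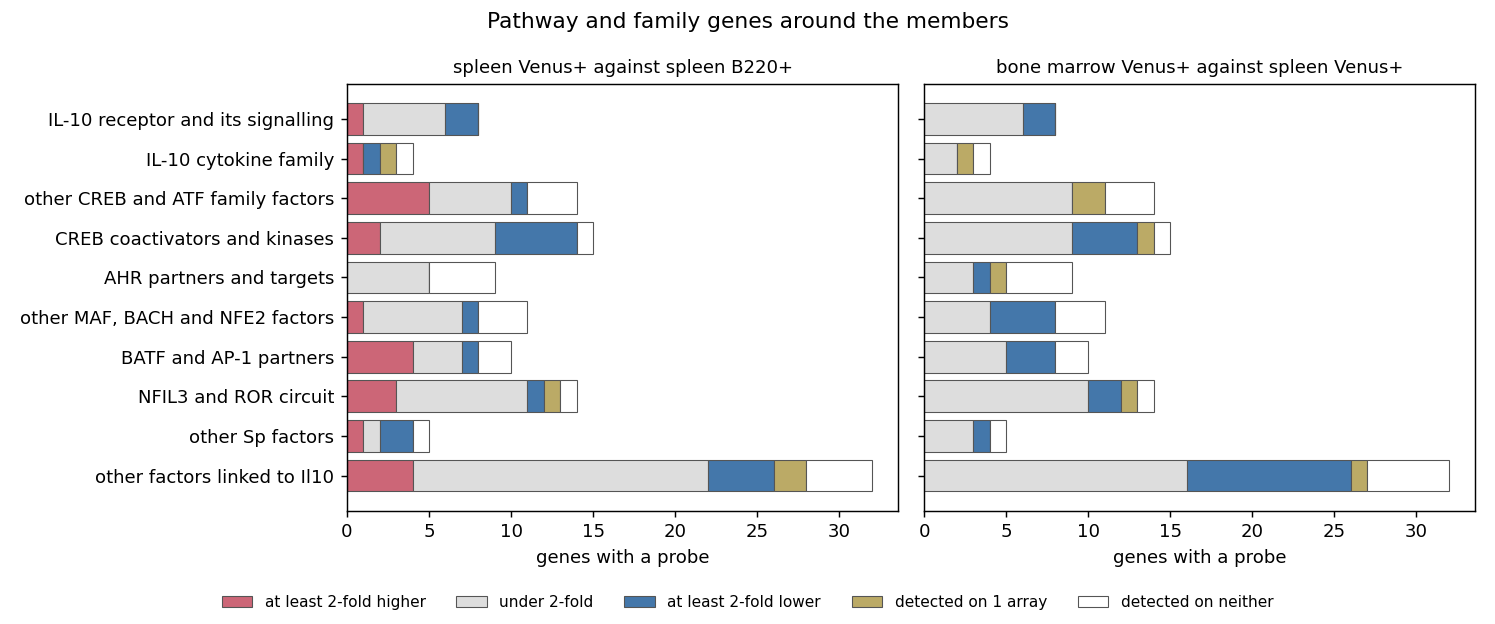
Number of genes with a probe (horizontal axis) in each of 10 fixed lists of pathway and family genes (vertical axis), split by call, for spleen Venus+ against spleen B220+ cells (left) and bone marrow against spleen Venus+ cells (right). Red is at least 2-fold higher, blue at least 2-fold lower, grey under 2-fold, ochre detected on 1 array and white on neither. CREB and ATF factors have 5 higher genes on the left, and no list has a higher gene on the right, where scaling to the probes detected on every array makes 2 CREB and ATF genes (Creb3 and Creb3l2) and 1 gene of the NFIL3 and ROR circuit (Hlf) higher.

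Other factors linked to Il10 had 4 of 26 genes higher and 4 lower in spleen Venus+ than in B220+ cells, shares near the 15.7% and 16.5% of all genes. Prdm1, which encodes Blimp1, the repressor that the title of the series ties to IL-10, led with 3.22 ± 0.18, followed by Cebpb (1.88 ± 0.14), a leucine zipper factor of inflammatory genes. Foxo1 (-1.84 ± 0.14) and the hypoxia factor gene Hif1a (-1.46 ± 0.14) were lowest. Bcl6, which germinal centre B cells need, was seen in B220+ cells alone, at least 7.15-fold lower in spleen Venus+ cells. The T cell factor gene Gata3 was just over the limit in spleen Venus+ cells alone, at 2.18. In bone marrow against spleen Venus+ cells 10 of 26 were lower and 0 higher, beside 15.2% and 4.33% of all genes. Their median was -0.76, against -0.17 over all genes. Egr2 (-2.57 ± 0.26) and Nfkb1 (-2.02 ± 0.12) were lowest, and Eomes (0.67 ± 0.16) and Rxra (0.42 ± 0.24) highest. Under the other scaling 5 were lower, among them Egr2 and Nfkb1. Egr2 had signals of 14.6, 43.3 and 7.31, high in the spleen Venus+ cells as Ahr was, and Prdm1 had 8.72, 81.5 and 34.4.

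On the side of the receptor, 1 of 8 genes was higher and 2 lower in spleen Venus+ than in B220+ cells, beside 15.7% and 16.5% of all genes. Il10ra, of the ligand-binding chain, had 452, 46.4 and 11.1, and Jak1, of the kinase bound to it, 1465, 332 and 97.1. The log2 ratios in the spleen were -3.28 ± 0.14 and -2.14 ± 0.14, and between bone marrow and spleen Venus+ cells -2.07 ± 0.19 and -1.77 ± 0.11. Il10ra and Jak1 were the 2 lower genes of 8 in the latter comparison with 0 higher, beside 15.2% and 4.33% of all genes. Il10rb, of the chain shared with other cytokines, had 330, 364 and 300 and differed by under 2-fold in each comparison. It shared the highest ratios between the Venus+ populations (-0.28 ± 0.11) with Stat3 (-0.27 ± 0.12), of the factor that carries the signal to the nucleus. Socs1, of an inhibitor of cytokine signalling, was higher in the spleen (1.29 ± 0.16), and Tyk2, of the kinase bound to Il10rb's product, had 0.91 ± 0.14. Of the IL-10 family, Ifnl3 (1.05 ± 0.31) was higher and Il20 (-1.65 ± 0.50) lower in spleen Venus+ cells, and Il20 was not detected in the bone marrow. Il19 was detected near the limit in both Venus+ populations and not in B220+ cells, and Il24 on none.

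By the distance between the log2 signals over the 3 arrays, each gene centred on its own mean, the 5 genes of 10768 nearest to Il10 were Eaf2 (0.0979), Cpeb3 (0.182), Cox6a2 (0.214), Igf1r (0.232) and Tmem44 (0.263). Among the members Nfil3 was the nearest, at rank 166 (0.881). Ahr was at rank 4968 (3.22), Batf at 6657, and Crtc2, Creb1, Atf1 and Sp1 between 9960 and 10301. The rank rests on 3 values per gene and is a description of these arrays.

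**Figure D4:**
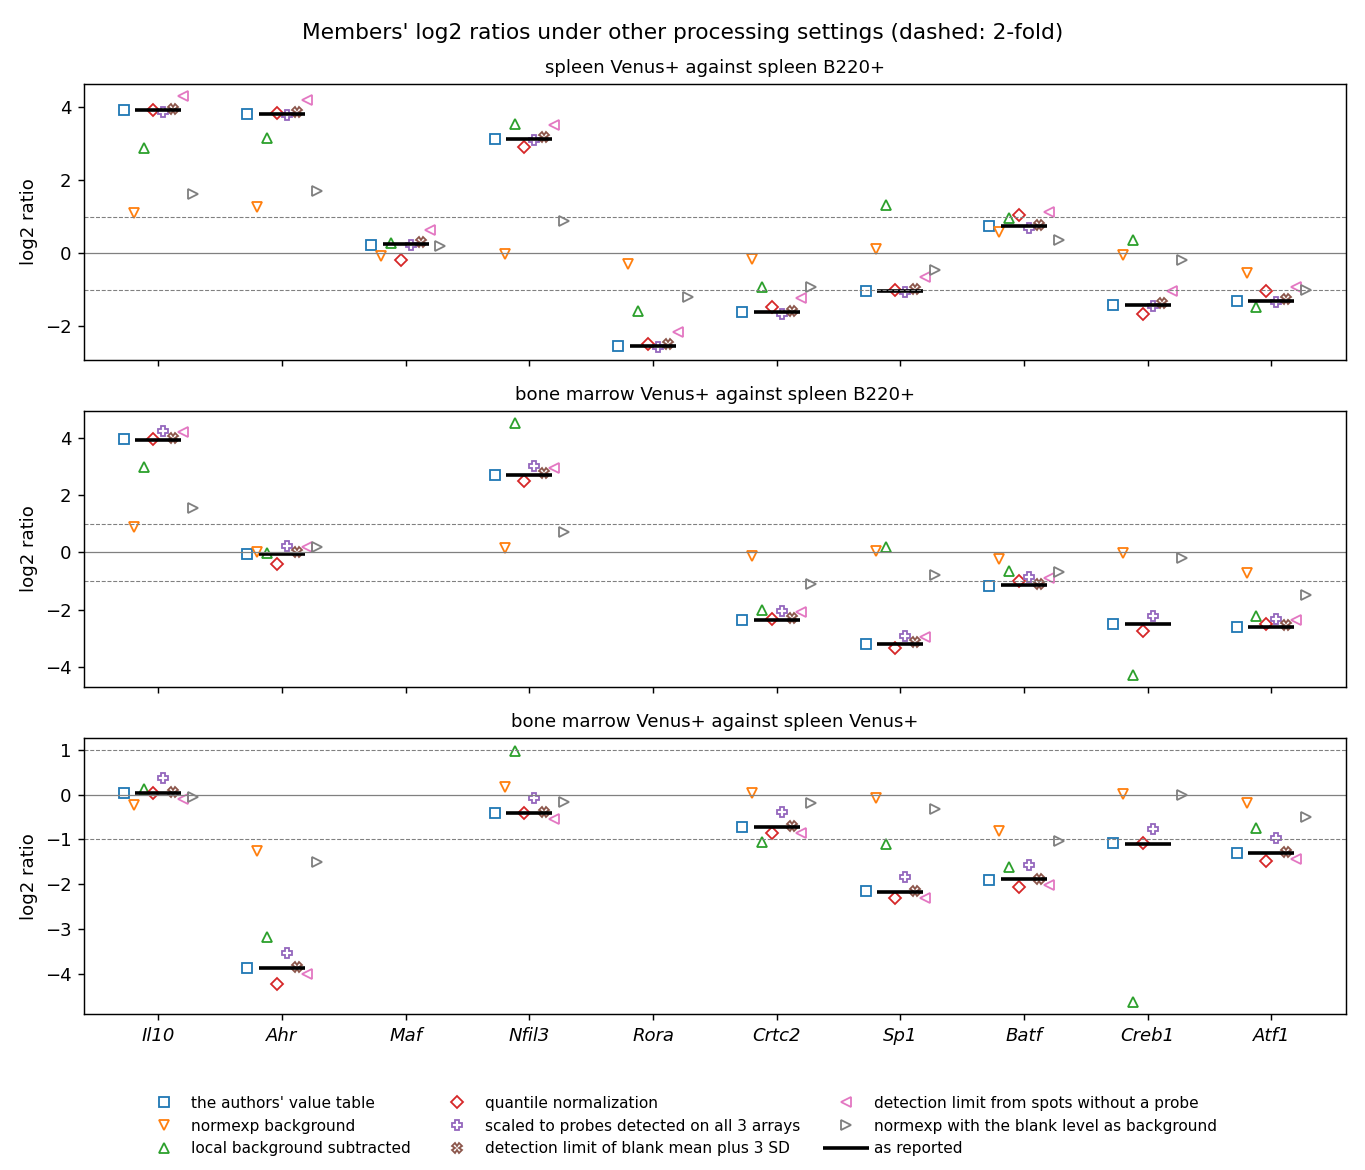
Log2 ratio (vertical axes) of each of the 10 genes (horizontal axis) in the 3 comparisons as reported (black lines) and under 8 other processing settings (symbols), with dashed lines at 2-fold. Genes without a symbol were not detected on both arrays. Ratios to B220+ cells beyond 2-fold are closer to 0 under the normexp settings than as reported, and Ahr in bone marrow against spleen Venus+ cells stays below -1 under every setting drawn.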

How the data were processed

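RNA was amplified, labelled with Cy5 and hybridized to Toray 3D-Gene mouse arrays, per the labels' protocols. The scanner files give the median intensity of each spot and a local background, per the file headers. The authors also deposited a processed intensity table. From each spot median the blank level was subtracted here (the mean over blank spots after leaving out the outer tails, which keeps 90% of them). A spot was detected above this level plus 2 SD, and the median of the detected signals was set to 25. Detection calls then differed from the authors' table for 0 probes. No source used here gives the scanner software version. The spot error joins the blank SD with the relative SD of positive controls, 24 copies of each.

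Among the 23473 probes, 16631 carried 1 gene symbol and 6842 none. RefSeq names of GRCm38.p6 matched 12622 as current and 3947 as synonyms. The brightest probe stood for a gene. No test was made, because each population has 1 array.

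The members and lists were chosen with earlier results of these data known. Named are all 10 members and, of each list, up to 2 highest and 2 lowest log2 ratios of the spleen comparison and of bone marrow against spleen Venus+ cells, genes detected on 1 array with the largest bound, and the 5 genes nearest to Il10. Genes named outside this rule (Irf4, Per3, the cell type markers and genes detected on no array) were chosen after their values were seen. Alternatives were the authors' table, normexp and local backgrounds, quantile normalization, another scaling, other detection limits, the mean of a gene's probes and other fold thresholds. Normexp with the blank level as background was added after seeing the data, and both normexp settings used an offset of 50. The scripts were tested on simulated data. Python 3.11.15, pandas 2.3.3, R 4.3.3 and limma 3.58.1 were used.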

Additional observations from a re-analysis of the deposited data

Results flagged for a closer look

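The log2 ratios of Ahr and Batf against the shared B220+ array had opposite signs in the 2 Venus+ populations, but for Ahr the bone marrow ratio gives no direction. The log2 ratio of Ahr was 3.80 in the spleen and -0.05 in the bone marrow, a difference of -3.86, and the bone marrow value lies within its spot error and was positive under 5 of 9 other settings. That of Batf was 0.74 and -1.16, a difference of -1.89. With 1 array per population, neither difference was tested.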

How the results depend on the processing

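Counts of members at least 2-fold apart were 8 for spleen Venus+ against B220+ cells, 7 for bone marrow Venus+ against B220+ cells and 5 for bone marrow against spleen Venus+ cells. Of all genes, 15.7% were higher and 16.5% lower in the first, 22.4% and 30.7% in the second, and 4.33% and 15.2% in the third. Il10, whose rise follows from the sort on Venus, is included in the counts against B220+ cells. The member counts were 2, 0 and 1 with the normexp background and 3, 3 and 2 with the blank level as its background. Calls over all genes fell as well: in the spleen comparison normexp gave 360 higher and 509 lower genes in place of 1828 and 1915. In bone marrow Venus+ against B220+ cells it gave 320 and 1023 in place of 2424 and 3320. Between the Venus+ populations it gave 82 and 378 in place of 492 and 1720. With the blank level these all-gene calls were 410 and 1174, 578 and 2142, and 62 and 315, in the order of the member counts. With a 3-fold threshold the first member count was 5 and the third 3, and no share of all genes is given for that threshold. With scaling to probes detected on every array the third member count was 3, where 1250 of all genes were higher and 916 lower. Among ratios of at least 2-fold, signs turned for Nfil3 (-0.021 with normexp) and Sp1 (0.11 with normexp, 1.30 with the local background) and Creb1 (0.35 with the local background) in the spleen comparison. They also turned for Sp1 in bone marrow Venus+ against B220+ cells (0.033 with normexp, 0.19 with the local background) and for Creb1 between the Venus+ populations (0.021 with normexp). The cause was not tested. Of 230 member ratios under 9 other settings, 210 kept their sign and 20 did not. Ratios under 2-fold that turned include Ahr in bone marrow Venus+ against B220+ cells (up to 0.24) and, between the Venus+ populations, Nfil3 (0.17 with normexp, 0.98 with the local background) and Crtc2 (0.03 with normexp). Of the 176 of these whose reported ratio was at least 2-fold, 41 went under 2-fold and 7 turned. The local background was 52.7% to 60.6% of the spot median at the median probe above 200. Maf on every array, Creb1, Sp1 and Rora in the bone marrow and Nfil3 in B220+ cells had signals under 3 times the detection limit. Of these, Maf and Rora in the bone marrow were under the limit itself. No paired analysis was possible because each population has 1 array.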
